A study of Mus musculus with 24 samples.

Results

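Cytochrome c oxidase carries several small subunits that mammals encode as pairs of genes, a common isoform and a tissue-restricted one, and the data here describe 9 of these genes in mouse pancreatic islets. They are Cox6a2 and Cox6a1, Cox4i2 and Cox4i1, Cox7a1 and Cox7a2, Cox8b and Cox8a, and Cox6b1. The members were found by their NCBI Gene numbers (12862, 12861, 84682, 12857, 12865, 12866, 12869, 12868 and 110323 in that order), and all 9 were among the 28059 genes of the expression table. The set was chosen by a measured value: Cox6a2 was selected on its change between Cop1-deleted and control islets in these same libraries, and the other isoforms were taken by name. Its change in that contrast is therefore given as a description without a test.

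RNA from islets of mice 3 to 4 months old on a mixed background was sequenced in 24 libraries, of which 22 could be placed in a group by title. Controls were Cop1 fl/fl without a Cre transgene. The Cop1 deletion group, ΔCop1β, was Cop1 fl/fl with Pdx1.CreERT2, a Cre recombinase fused to an oestrogen receptor domain under the Pdx1 promoter, which is active in β cells and in some other islet cells. Sample numbers in the titles fell into 2 ranges, called set 1 and set 2 here, and each set had its own controls and its own Cop1 deletion group. Set 1 held 3 controls, 3 ΔCop1β libraries and 4 libraries of ΔCop1β ΔETV1/4/5β islets, which also carried Etv1 fl/fl, Etv4 ko/ko and Etv5 fl/fl. Set 2 held 4 controls, 4 ΔCop1β libraries and 4 libraries of ΔCop1β ΔETV4/5β islets, which also carried Etv4 ko/+ and Etv5 fl/fl. Every deleted group carried the Cre transgene by label and no control did, so Cre and the deletions cannot be told apart. The Etv genotype and the set cannot be told apart either, because each genotype was present in a single set. Islets were handpicked and cultured before RNA was extracted. The design calls the replicates biological, and whether islets of several mice were pooled is not stated in the labels.

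Cytochrome c oxidase, complex IV of the respiratory chain, takes electrons from cytochrome c, hands them to oxygen and pumps protons across the inner mitochondrial membrane. Its catalytic core is encoded by mitochondrial DNA, and the nuclear subunits surround that core and tune its activity and assembly. Cox6a2, Cox7a1 and Cox8b are known as the heart and skeletal muscle isoforms, Cox4i2 as the lung isoform whose expression responds to low oxygen, and their partners are made in nearly all tissues. Cop1 is part of a ubiquitin ligase whose known substrates include the ETS transcription factors Etv1, Etv4 and Etv5, and the comparisons ask what losing Cop1 does in islets and whether removing these factors as well changes the outcome.

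The Cox6a pair is shown first, because the comparison of its members rests on telling the transcripts apart. Over 282 aligned coding bases, Cox6a2 and Cox6a1 were identical at 64.2%, and the longest run they shared was 12 bases. The stretch below covers coding bases 158 to 277 of Cox6a2 and 203 to 322 of Cox6a1 in the GENCODE M21 transcripts, and capitals mark the 31 of 120 positions at which the isoforms differ.
Cox6a2: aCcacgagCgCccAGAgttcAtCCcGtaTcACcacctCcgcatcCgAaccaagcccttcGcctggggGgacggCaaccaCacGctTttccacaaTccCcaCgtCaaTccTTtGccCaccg
Cox6a1: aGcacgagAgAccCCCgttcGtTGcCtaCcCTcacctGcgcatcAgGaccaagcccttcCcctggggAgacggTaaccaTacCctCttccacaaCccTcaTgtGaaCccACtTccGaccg
The other pairs were about as far apart, with 69.6% identity and a longest shared run of 14 bases for Cox4i2 and Cox4i1, 64.7% and 12 bases for Cox7a1 and Cox7a2, and 60.5% and 10 bases for Cox8b and Cox8a. None of the 50-base words of any member occurred in its partner. Cox6a2 shared 3.33% of its 50-base words with another gene, its neighbour Itgad, Cox6a1 shared 12.3% and Cox4i1 shared 14.7%, the latter with Emc8. The other 6 members shared none.

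The promoters of 3 common members held the ETS core CCGGAAG close to the annotated start, which is shown because the deleted Etv genes encode ETS factors. RefSeq promoter sequences (GRCm38.p6, 250 bases before the start to 50 bases after it) were at hand for 6 of the 9 members: Cox6a1, Cox6b1, Cox7a1, Cox7a2, Cox8a and Cox8b. The windows below run from 80 bases before the start over the first 30 transcribed bases, and capitals mark motif matches, with CCGGAAG appearing as CTTCCGG where it lies on the other strand.
Cox6a1, chr5:115348929-115349038, minus strand: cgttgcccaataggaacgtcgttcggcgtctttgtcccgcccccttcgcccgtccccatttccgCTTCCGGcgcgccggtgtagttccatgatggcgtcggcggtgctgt
Cox6b1, chr7:30626085-30626194, minus strand: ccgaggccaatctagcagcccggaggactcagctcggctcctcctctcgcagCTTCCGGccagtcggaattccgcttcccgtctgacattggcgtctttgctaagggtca
Cox8a, chr19:7217587-7217696, minus strand: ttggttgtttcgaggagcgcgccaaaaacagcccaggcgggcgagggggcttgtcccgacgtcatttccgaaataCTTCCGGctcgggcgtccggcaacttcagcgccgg
Cox8b, chr7:140900417-140900526, minus strand: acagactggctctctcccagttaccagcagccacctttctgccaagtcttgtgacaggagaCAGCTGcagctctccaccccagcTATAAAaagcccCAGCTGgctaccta
The match began 16 bases before the start in Cox6a1, 28 before in Cox6b1 and 5 before in Cox8a, which held another match 32 bases after the start. Of all 32851 RefSeq promoters of this length, 8.86% held CCGGAAG on either strand. The promoter of the muscle isoform Cox8b held no CCGGAAG. It had the E-box CAGCTG, a motif of 16.3% of all promoters, 19 bases before and 16 bases after the annotated start. TATAAA, found in 13.6%, lay 4 bases after the annotated start. The other motifs searched, on both strands, were GGAAGTG (11% of promoters), which can overlap CCGGAAG, the NRF1 half-site TGCGCA (7.76%), the E-box CACGTG (7.15%) and the MEF2 core TATTTA (13.7%). Outside the printed windows, Cox6a1 had TGCGCA 118 bases before the start and Cox6b1 had GGAAGTG 119 bases before it. None of the 7 motifs occurred in the promoters of Cox7a1 and Cox7a2. These letter matches do not show binding. No promoter sequence of Cox6a2, the member called with the Etv1, Etv4 and Etv5 deletions added, was at hand to search.

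The deposited values are RPKM, reads scaled by gene length and by the reads of the library, so levels of different genes can be set side by side. The low values rose in steps that were taken as single reads, which gave relative depths of 0.331 to 0.526 of the deepest library in set 1 and 0.758 to 1 in set 2. The insulin genes Ins1 and Ins2 took 21.0% to 41.1% of all RPKM. Mean Cop1 was 1.44 RPKM in controls, 1.04 in ΔCop1β and 0.893 in ΔCop1β ΔETV1/4/5β islets of set 1, and 1.64, 0.875 and 0.816 in the groups of set 2. Esr1, whose ligand-binding domain CreERT2 contains, read 44.0 to 111 RPKM in the Cre groups and at most 0.200 RPKM in 6 of 7 controls, but 99.1 RPKM in set 1 control replicate 2, against its label. Etv4 averaged 1.26 RPKM in the group labelled Etv4 ko/ko and 0.0728 RPKM in the set 1 controls, and which of the counted bases lie in the deleted part is not given in the sources used here. Set 2 control replicate 4 also stood apart, with the lowest total of all libraries, 524289 RPKM. Changes of Cox6a2 against controls are given with and without set 1 control replicate 2 or set 2 control replicate 4, and those of other genes follow at the end.

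Cox6a2, the isoform best known from heart and skeletal muscle, was abundant in control islets and much lower in Cop1-deleted islets. In set 1 its level was 82.0, 96.0 and 62.0 RPKM in the controls (mean 80.0 ± 17.1, SD, n = 3) and 13.7, 16.5 and 13.5 RPKM after Cop1 deletion (14.6 ± 1.66, n = 3). In set 2 it was 66.4, 79.6, 49.7 and 18.7 RPKM in the controls (53.6 ± 26.3, n = 4) and 16.4, 12.5, 7.08 and 17.5 RPKM after Cop1 deletion (13.4 ± 4.72, n = 4). The lowest control, set 2 replicate 4, lay just above the highest deleted library of its set, and the groups did not overlap in either set. Fold changes here are differences of mean log2(RPKM + 0.5), which understates changes of genes near 0. The Cop1 deletion groups were lower by −2.40 (SE 0.37) in set 1 and −1.86 (SE 0.32) in set 2 on this log2 scale, with a mean over sets of −2.13 (SE 0.24). Without set 1 control replicate 2 the set 1 value was −2.26 (SE 0.42), and without set 2 control replicate 4 the set 2 value was −2.29 (SE 0.23). The mean over sets was −2.06 (SE 0.27) without the first of these libraries and −2.35 (SE 0.17) without the second. These are the values the gene was selected on. In bulk RNA, fewer cells of a type and less RNA per cell cannot be told apart.

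Deleting Etv1, Etv4 and Etv5 together with Cop1 went with a higher Cox6a2 level than Cop1 deletion alone. Cox6a2 read 51.8, 67.5, 56.6 and 54.7 RPKM in the 4 ΔCop1β ΔETV1/4/5β libraries (57.6 ± 6.87, SD). All 4 lay above all 3 ΔCop1β libraries of set 1, the nearest pair being 51.8 and 16.5 RPKM. The difference was 1.95 on the log2 scale (SE 0.35), a 3.86-fold rise (limma, adjusted p = 0.00144), and 6.34% of the 14342 tested genes were called at an adjusted p below 0.05 in that comparison. Of the 8 members that passed the filter on low values, Cox6a2 alone was called. The comparison shares its ΔCop1β libraries with the contrast that selected the gene, so it is not independent of that choice. Against the set 1 controls, Cox6a2 in ΔCop1β ΔETV1/4/5β islets was −0.45 (SE 0.35, limma adjusted p = 0.805), with overlapping groups, and −0.31 (SE 0.40, adjusted p = 0.870) without control replicate 2. None of the 8 members was called in that comparison, in which 1.32% of genes were. It shares its controls with the contrast that selected the gene.

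Deleting Etv4 and Etv5, with 1 Etv4 allele left and Etv1 intact, left Cox6a2 near its level after Cop1 deletion alone. The 4 ΔCop1β ΔETV4/5β libraries of set 2 read 14.2, 14.4, 15.8 and 14.5 RPKM (14.7 ± 0.726, SD). They lay inside the range of the 4 ΔCop1β libraries, 7.08 to 17.5 RPKM. The difference was 0.21 on the log2 scale (SE 0.32, limma adjusted p = 0.713), and without ΔCop1β replicate 3, the lowest library of its group, it was −0.06 (adjusted p = 0.927). No member was called here, where 1.73% of genes were. Against the set 2 controls Cox6a2 fell by 1.65 on the log2 scale (SE 0.32, 3.14-fold, limma adjusted p = 0.00241), in a comparison that called 8.74% of genes and no other member. Without control replicate 4 this difference was −2.09 (SE 0.23, adjusted p = 1.03e-05). The groups did not overlap, the nearest libraries being 15.8 and 18.7 RPKM. This comparison shares its controls, and the one before it its ΔCop1β libraries, with the contrast that selected the gene, so neither is independent of that choice.

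The difference between the 2 Etv effects on Cox6a2, a comparison added after seeing the data, was 1.74 on the log2 scale (SE 0.47, limma adjusted p = 0.0435), with 4.06% of genes called. This call was lost in 18 of 32 alternative settings, with limma adjusted p from 0.00333, without set 2 control replicate 4, up to 0.106, without set 1 ΔCop1β replicate 4. Of the 22 settings that left out 1 library, it held in 6, those without set 1 control replicate 2 or 3, set 2 control replicate 1, 2 or 4, or set 2 ΔCop1β replicate 3. Cox6a2 was the only one of the 8 members called. This comparison shares the ΔCop1β libraries of both sets with the contrast that selected the gene. It is therefore not independent of that choice. The effect of Cop1 deletion on Cox6a2 differed between the sets by −0.54 (SE 0.49), and in that comparison 2.83% of genes and none of the members were called.

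Set beside its partner, Cox6a2 made up a large minority of Cox6a transcripts in control islets and a small one after Cop1 deletion. Its share of the summed RPKM of Cox6a2 and Cox6a1 was 39.4%, 44.3% and 32.9% in the set 1 controls and 9.73%, 11.7% and 9.36% after Cop1 deletion. In ΔCop1β ΔETV1/4/5β islets it was 32.4%, 36.1%, 31.0% and 30.4%. The last group therefore overlapped the controls and stood clear of Cop1 deletion alone. In set 2 the share was 29.0%, 32.0%, 23.1% and 10.7% in controls and 8.40%, 5.49%, 4.67% and 9.71% after Cop1 deletion. It was 7.96%, 7.65%, 8.24% and 7.61% with Etv4 and Etv5 deleted as well, inside the range of Cop1 deletion alone. The log2 ratio of Cox6a2 to Cox6a1 differed by 2.08 between ΔCop1β ΔETV1/4/5β and ΔCop1β islets (exact 2-sided permutation test, 4 against 3 libraries, p = 0.0571, the smallest this design can give). In set 2 it differed by 0.23 (exact 2-sided permutation test, 4 against 4 libraries, p = 0.429, with 0.0286 the smallest possible). Benjamini-Hochberg adjustment over these 2 tests cannot bring the first below 0.05. Both tests share their ΔCop1β libraries with the contrast that selected Cox6a2, so neither is independent of that choice.

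**Figure D1:**
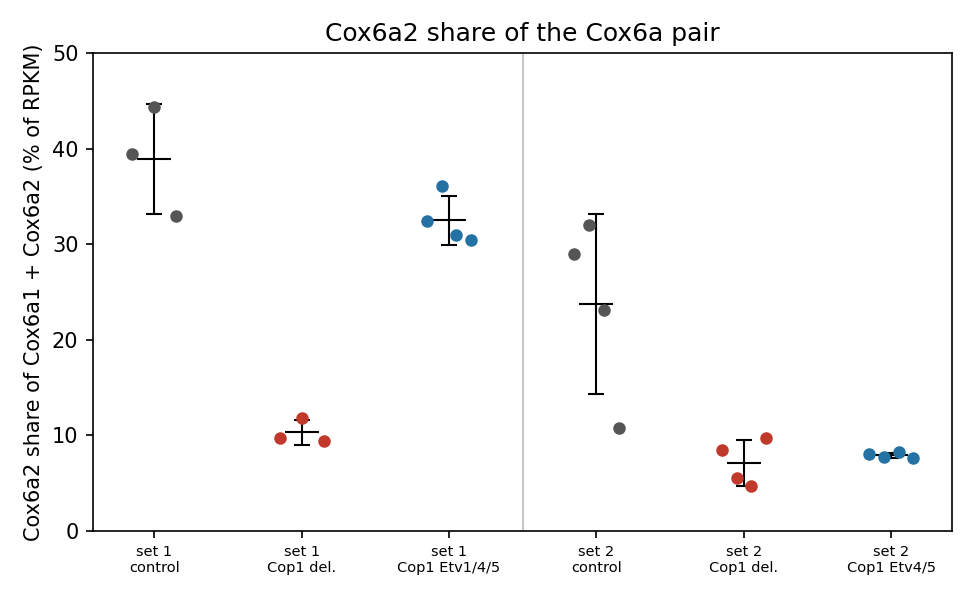
Share of Cox6a2 in the summed RPKM of Cox6a2 and Cox6a1, in percent (vertical axis), by group. Dots are libraries and bars are the mean ± SD. The ΔCop1β ΔETV1/4/5β libraries lie between 30.4% and 36.1%, and the ΔCop1β ΔETV4/5β libraries between 7.61% and 8.24%.

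The common partner Cox6a1 was not called in any comparison. Its level was 124 ± 3.28, 127 ± 3.43 and 120 ± 8.37 RPKM (mean ± SD) in the control, ΔCop1β and ΔCop1β ΔETV1/4/5β groups of set 1 and 164 ± 5.62, 175 ± 29.9 and 172 ± 5.33 RPKM in those of set 2. The summed level of the pair was accordingly lower in Cop1-deleted islets, 142 ± 2.01 RPKM against 204 ± 14.3 in the set 1 controls, and 177 ± 12.2 RPKM with the Etv1, Etv4 and Etv5 deletions added. In set 2 the sums were 217 ± 31.3 RPKM in controls, 189 ± 31.5 after Cop1 deletion and 187 ± 5.76 with Etv4 and Etv5 deleted as well. For Cox6a1 the 95% interval of the change with the Etv1, Etv4 and Etv5 deletions added ran from −0.28 to 0.10 on the log2 scale.

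The other tissue-restricted isoforms stood at the bottom of the range in every group. Over the 10 libraries of set 1, Cox4i2 lay between 1.08 and 2.61 RPKM, and over the 12 of set 2 between 0.415 and 2.23 RPKM. It made up 1.01% to 1.30% of the Cox4i pair by group mean in set 1 and 0.559% to 0.658% in set 2, and no comparison called it. Cox7a1, the muscle and brown fat partner of Cox7a2, lay between 0.653 and 1.26 RPKM in set 1 and between 0.644 and 2.10 RPKM in set 2. In set 2 it read 1.15, 1.31, 1.86 and 0.853 RPKM after Cop1 deletion and 1.04, 0.734, 0.644 and 0.769 RPKM with Etv4 and Etv5 deleted as well, and the groups overlapped. That difference was −0.45 on the log2 scale, with a 95% interval of −0.87 to −0.03 before adjustment, and it did not pass the test over all genes (limma adjusted p = 0.193). Cox8b was above 0 in 10 of 22 libraries, its highest value being 0.151 RPKM, and it fell under the filter of 1 RPKM in 4 libraries, so it was not tested. At these levels, which were taken as 0, 1 or 2 reads, differences between groups were not detectable.

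None of the 5 common members was called in any comparison, and their levels moved little beside those of Cox6a2. Cox4i1, an early-assembling subunit that spans the membrane, averaged 162, 155 and 156 RPKM in the control, ΔCop1β and ΔCop1β ΔETV1/4/5β groups of set 1 and 187, 198 and 185 RPKM in those of set 2. Cox6b1, which bridges the monomers of the complex, averaged 101, 105 and 98.1 RPKM in set 1 and 159, 171 and 158 RPKM in set 2. Cox7a2, a small membrane-spanning subunit, averaged 65.2, 65.0 and 64.2 RPKM in set 1 and 85.3, 89.3 and 87.6 RPKM in set 2. Cox8a, another small membrane subunit, averaged 194, 189 and 194 RPKM in set 1 and 153, 167 and 169 RPKM in set 2. Within set 1 the highest of the 10 libraries exceeded the lowest by a factor of 1.11 for Cox7a2 up to 1.21 for Cox6a1 and Cox4i1. Within set 2 these factors were 1.46 to 1.58, and for all 5 genes the highest library was ΔCop1β replicate 2, which also had the highest total of all libraries, 682560 RPKM. The part of that library's scale in these values was not tested. Over the 9 comparisons the log2 differences of the common members lay between −0.16 and 0.15, with no call. In the comparisons that did not select Cox6a2, their lowest limma adjusted p was 0.366. The 7 tested members other than Cox6a2 gave no call in any of the 9 comparisons. Cox6a2 alone was lower among 8 members in both sets and in their mean. Over all tested genes 8.33% were called in set 1, 18.8% in set 2 and 20.1% in the mean of the sets, and since this contrast selected Cox6a2, nothing is read from that count.

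**Figure D2:**
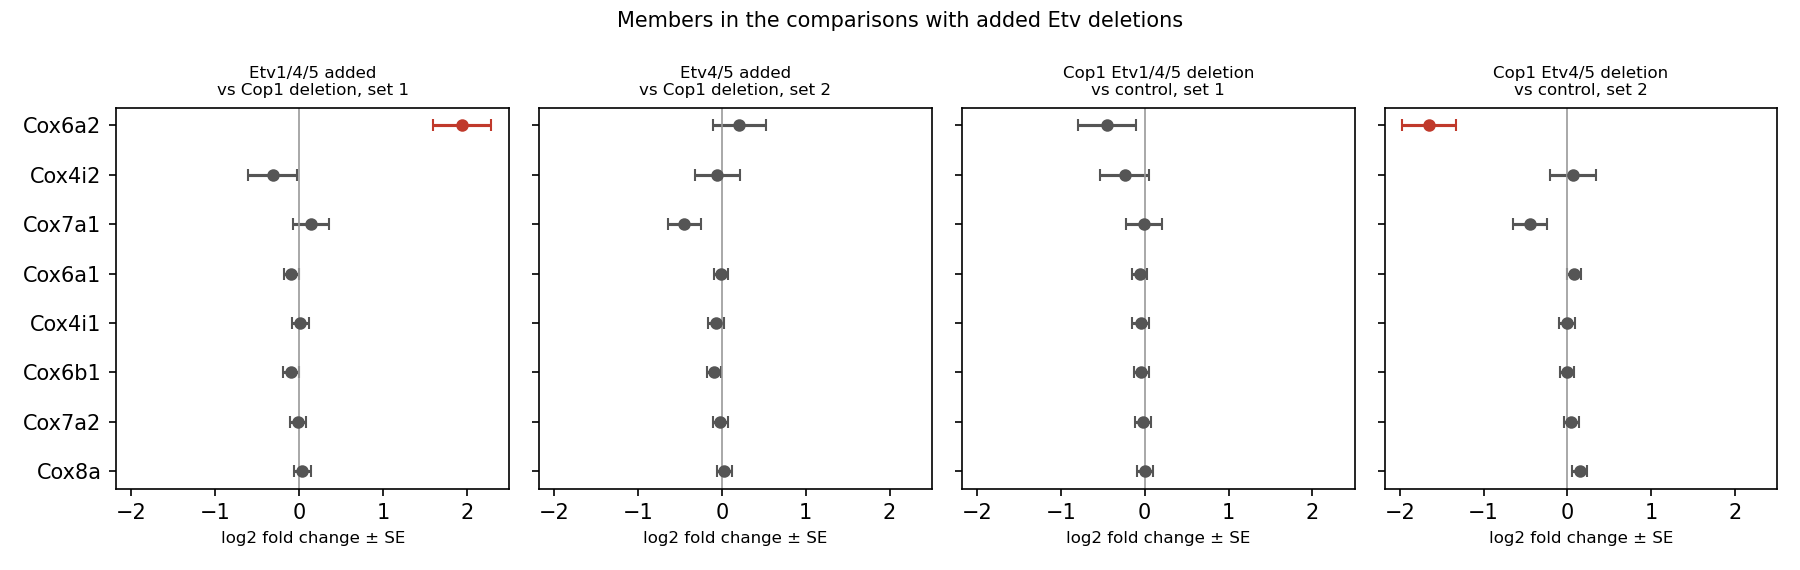
Log2 fold change of the 8 tested genes (horizontal axes, ± SE) in the 4 comparisons of the ΔCop1β ΔETV1/4/5β and ΔCop1β ΔETV4/5β groups with Cop1 deletion alone and with controls. Red points passed an adjusted p below 0.05: Cox6a2 at 1.95 with the Etv1, Etv4 and Etv5 deletions added and at −1.65 between ΔCop1β ΔETV4/5β islets and controls. The 5 common genes stay between −0.10 and 0.15.

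By level, the order in set 1 controls was Cox8a, Cox4i1, Cox6a1, Cox6b1, Cox6a2, Cox7a2, Cox4i2, Cox7a1 and Cox8b. The libraries of Cox6a2 and Cox7a2 overlapped there, and no other neighbours in the order did. In set 2 controls the order was Cox4i1, Cox6a1, Cox6b1, Cox8a, Cox7a2, Cox6a2, Cox7a1, Cox4i2 and Cox8b. The first 4 overlapped with their neighbours, as did Cox7a2 with Cox6a2 and Cox7a1 with Cox4i2. The tissue-restricted Cox6a2 thus ranked among the common isoforms in set 1 controls and directly below them in set 2 controls. Its counterparts Cox4i2, Cox7a1 and Cox8b were low in all 22 libraries.

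Of 12 other nuclear genes of the complex, 11 were in the table and 8 passed the filter, and none fell in any comparison. Cox5a, Cox5b, Cox7b and Cox7c were not called in any comparison. Ndufa4, a peripheral subunit once counted with complex I, rose with Cop1 deletion in set 1 from 58.2 ± 4.91 to 81.4 ± 1.96 RPKM, by 0.49 on the log2 scale (limma adjusted p = 0.00665), and stood at 66.7 ± 6.08 RPKM in ΔCop1β ΔETV1/4/5β islets. Cox6c rose in set 2 from 70.6 ± 3.54 to 93.3 ± 17.8 RPKM, by 0.38 on the log2 scale (limma adjusted p = 0.0111), and read 80.9 ± 5.52 RPKM with Etv4 and Etv5 deleted as well. Both rose in the mean of the sets, by 0.30 (limma adjusted p = 0.00537) for Ndufa4 and 0.24 (adjusted p = 0.0304) for Cox6c. The Cox6c call in the mean was lost in 6 of 32 alternative settings and that in set 2 in 2 of 33. Both were lost with libraries scaled without Ins1 and Ins2 (limma adjusted p = 0.134 in the mean and 0.0912 in set 2), and that in the mean also without set 1 control replicate 1 (adjusted p = 0.0733) or ΔCop1β replicate 2 (adjusted p = 0.0725). The median of the 8 was 0.05 in that mean, beside −0.02 over all tested genes. Cox6c shared 13.9% of its 50-base words with its copy Cox6c2. None of the 8 was called with the Etv deletions added in either set. Under equal total RPKM per library, with all tested genes shifted by −0.13 at the median, Ndufa4 (−0.44, adjusted p = 0.0037) and Cox6c (−0.34, adjusted p = 0.0419) were called lower with the Etv1, Etv4 and Etv5 deletions added. Cox8c was listed at 0 in every library, and Cox6b2 and Cox7b2 failed the filter. Cox7a2l, which helps join complexes III and IV, averaged 72.6 RPKM in set 1 controls and 20.2 RPKM in set 2 controls, and levels were not tested between sets. The subunits encoded by mitochondrial DNA were not analysed here.

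Among 27 genes for assembly of the complex and for its copper and haem, all tested, 4 were called in the mean of the sets after Cop1 deletion. Over all tested genes 20.1% were called there, and nothing is read from this count. Coa7, a mitochondrial assembly factor, fell from 5.01 ± 0.496 to 3.15 ± 0.184 RPKM in set 1, by 0.59 on the log2 scale (limma adjusted p = 0.000628), and was still lower than control with Etv1, Etv4 and Etv5 deleted as well (−0.39, adjusted p = 0.0379). That last call was lost in 11 of 33 alternative settings, with the highest adjusted p, 0.248, without set 1 control replicate 1. Lrpprc, which stabilises mitochondrial messenger RNAs, fell from 28.0 ± 3.12 to 21.0 ± 1.82 RPKM in set 2, by 0.41 on the log2 scale (limma adjusted p = 0.00436). Smim20, a small assembly factor of the complex, rose there by 0.41 (limma adjusted p = 0.0127), a call lost in 2 of 33 alternative settings. Cox18, the insertase for a mitochondrially encoded subunit, was called lower in the mean alone (−0.23, adjusted p = 0.0482), a call lost in 21 of 32 alternative settings. The list's median in the mean of the sets was 0.04, beside −0.02 over all tested genes. No gene of the list was called with the Etv deletions added in either set. None of the 9 tested genes of cytochrome c and complex III was called in any of the 9 comparisons.

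Of 16 regulators of respiratory chain genes, 15 were tested. Ppargc1a, the coactivator known as a master regulator of mitochondrial biogenesis, fell in set 1 from 4.16 ± 1.72 to 1.12 ± 0.138 RPKM after Cop1 deletion, by 1.46 on the log2 scale (limma adjusted p = 0.000211). It read 3.28 ± 0.861 RPKM in ΔCop1β ΔETV1/4/5β islets, 1.20 higher than with Cop1 deletion alone (adjusted p = 0.00101). In set 2 Ppargc1a was low throughout, at 0.411, 0.273 and 0.522 RPKM by group mean. With 0.5 RPKM added before logs, a fall as large as that in set 1 could not show there. The Cop1 effect on Ppargc1a differed between the sets by −1.22 (limma adjusted p = 0.0259). That call was lost in 10 of 31 alternative settings, among them leaving out set 1 control replicate 2 (−0.96, limma adjusted p = 0.0536). Mef2c, a factor of muscle gene programmes, was lower with the Etv1, Etv4 and Etv5 deletions added (−0.62, adjusted p = 0.0123), but not without set 1 ΔCop1β replicate 2 (adjusted p = 0.0984) or replicate 3 (adjusted p = 0.0619). In the mean of the sets Tfb1m, a mitochondrial ribosomal RNA methyltransferase, rose by 0.28 (limma adjusted p = 0.0303) and Yy1 fell by 0.14 (adjusted p = 0.0288), and each of these calls was lost in 5 of 32 alternative settings.

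Several β-cell markers changed in the same direction as Cox6a2, but not all. After Cop1 deletion 9 of 14 tested markers fell in set 1 and 8 fell and 1 rose in set 2, where 8.33% and 18.8% of all tested genes were called, with list medians of −0.72 and −0.57 beside −0.01 and −0.02 over all tested genes. The marker that rose in set 2 was Iapp (0.44, limma adjusted p = 0.0346), a call lost without set 2 control replicate 4. Slc2a2, the glucose transporter of mouse β cells, changed by −2.0 on the log2 scale in set 1 and by −3.37 in set 2 (limma adjusted p = 0.000116 and 4.45e-08). With Etv1, Etv4 and Etv5 deleted as well, 7 of 14 markers rose and none fell, in a comparison that called 6.34% of all genes, among them Slc2a2 by 1.58 (limma adjusted p = 0.000886), Ins1 by 0.90 (adjusted p = 0.000169), the glucose-6-phosphatase G6pc2 by 1.24 (adjusted p = 0.00142) and Ero1b by 0.85 (adjusted p = 0.00154). With Etv4 and Etv5 deleted as well, 3 of 14 rose, where 1.73% of all genes were called: the transcription factor Mafa by 1.60 (limma adjusted p = 0.0200), the oxidase of the endoplasmic reticulum Ero1b by 0.71 (adjusted p = 0.0206) and Slc2a2 by 1.13 (adjusted p = 0.0245). All 3 calls were lost without ΔCop1β ΔETV4/5β replicate 2, 3 or 4, and in fits of each set alone. Against controls none of the 14 markers was called in ΔCop1β ΔETV1/4/5β islets, and in ΔCop1β ΔETV4/5β islets 3 were lower and 2 higher, where 1.32% and 8.74% of all genes were called. The 2 higher were Iapp by 0.60 (limma adjusted p = 0.0108) and Ucn3 by 0.87 (adjusted p = 0.0457). Cox6a2 was not called with the Etv4 and Etv5 deletions added, and the difference between it and these markers was not tested. Mafa in set 2 averaged 145, 11.5 and 36.5 RPKM in the 3 groups, and Slc2a2 averaged 64.0, 5.57 and 12.9 RPKM. The part of β-cell number or state in the Cox6a2 values was not tested.

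**Figure D3:**
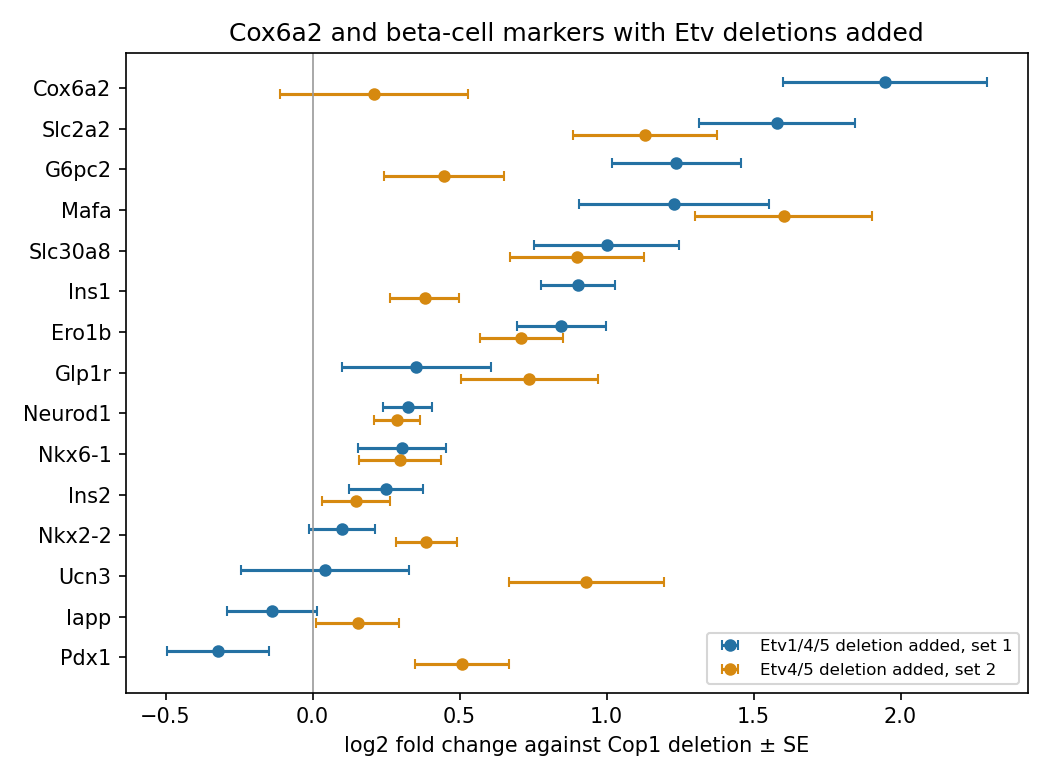
Log2 fold change against Cop1 deletion alone (horizontal axis, ± SE) of Cox6a2 and the 14 tested β-cell markers. Blue points are the Etv1, Etv4 and Etv5 deletions added in set 1, and orange points the Etv4 and Etv5 deletions added in set 2. Cox6a2 is at 1.95 in blue and 0.21 in orange, and Slc2a2 is at 1.58 and 1.13.

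Markers of striated muscle and brown fat, where the tissue-restricted isoforms are known from, were low. The summed level of 21 striated muscle markers was 4.82 to 5.80, 4.09 to 5.05 and 6.61 to 8.59 RPKM in the 3 groups of set 1 and 2.61 to 4.90 RPKM in set 2, less than that of Cox6a2 in every library. By group, 2 to 8 of the 21 were at 0 in every library. Of the 3 that were tested, 2 rose with the Etv1, Etv4 and Etv5 deletions added, where 6.34% of all tested genes were called. Actn2 rose by 1.38 (limma adjusted p = 0.000176), from 0.277 to 1.52 RPKM, and Acta1 rose by 0.58 (adjusted p = 0.0113). Actn2 was also higher than in the controls in ΔCop1β ΔETV1/4/5β islets (1.05, limma adjusted p = 0.00608), where 1.32% of all tested genes were called. Neither was called after Cop1 deletion (−0.33 for Actn2 and −0.43 for Acta1 in set 1). Mean Actn2 lay under the filter level of 1 RPKM in ΔCop1β islets of set 1 and above it in ΔCop1β ΔETV1/4/5β islets. Its calls may therefore depend on passing the filter through the group where it was high, which was not tested. The summed level of 8 brown fat and adipocyte markers was 7.04 to 15.9 RPKM in set 1 and 16.6 to 44.1 RPKM in set 2, and 0 to 4 of them were at 0 in every library of a group. Among these Cidea moved as Cox6a2 did in set 1, by −1.15 after Cop1 deletion (limma adjusted p = 0.0029) and 1.32 with the Etv1, Etv4 and Etv5 deletions added (adjusted p = 0.000624). Immune markers, 10 genes, summed to 72.7 to 83.4, 115 to 179 and 72.1 to 104 RPKM in set 1 and to 55.8 to 99.9, 152 to 271 and 127 to 164 RPKM in set 2. Of the 8 tested, 1 rose after Cop1 deletion in set 1 and 2 in set 2, with list medians of 0.18 and 0.80. Over all tested genes 8.33% and 18.8% were called there, so nothing is read from these counts. After Cop1 deletion the complement gene C1qa of this list rose by 1.31 in set 1 and by 2.56 in set 2 (limma adjusted p = 0.000104 and 6.03e-09), and C1qb rose by 0.87 in set 2 (adjusted p = 0.0313). In ΔCop1β ΔETV4/5β islets C1qa alone was called against controls (2.36, limma adjusted p = 1.83e-08), while the list median was 0.02 and 8.74% of all tested genes were called. Ductal markers, 6 genes, summed to 121 to 182 RPKM in set 1, and in set 2 to 276 to 315 RPKM in controls, 561 to 834 after Cop1 deletion and 532 to 559 with Etv4 and Etv5 deleted as well. Krt7, 1 of the 5 tested, was the only one called after Cop1 deletion in set 2 (1.32, limma adjusted p = 8.49e-07), where the list median was 0.87 and 18.8% of all tested genes were called. It was also the only one called in ΔCop1β ΔETV4/5β islets against controls (1.05, limma adjusted p = 2.17e-05), where the list median was −0.45 and 8.74% of all tested genes were called. The 11 acinar markers summed to 3199 to 8943, 4579 to 14138 and 2531 to 14478 RPKM in the 3 groups of set 1 and to 826 to 12330, 4256 to 23643 and 1085 to 4425 RPKM in those of set 2. The lowest sum was that of set 2 control replicate 4 and the highest that of set 2 ΔCop1β replicate 3, the libraries with the lowest Cox6a2 of their groups. In set 2 the 10 tested acinar markers had a median of 1.5 after Cop1 deletion, with none called where 18.8% of all tested genes were. Their median was −1.98 with the Etv4 and Etv5 deletions added, where Ptf1a alone was called (−1.44, limma adjusted p = 0.038) and 1.73% of all tested genes were. Among markers of the other endocrine cells, the δ-cell hormone gene Sst changed by −0.96 and −0.71 after Cop1 deletion in sets 1 and 2 (limma adjusted p = 0.00721 and 0.0123) and by 1.07 with the Etv1, Etv4 and Etv5 deletions added (adjusted p = 0.00226), while Ppy rose by 1.58 and by 1.07 after Cop1 deletion (adjusted p = 0.0197 and 0.0398). No pericyte, smooth muscle or endothelial marker was called in any comparison. The part of these cells in the Cox6a2 values was not tested.

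Likeness to Cox6a2 was measured as Pearson's r of log2(RPKM + 0.5), centred on the mean of each set, over the 22 libraries, which share their groups, depths and scaling. The most alike were the nucleotidase Nt5c3 (r = 0.950), the β-cell gap junction gene Gjd2 (0.946), Hadh, a mitochondrial enzyme of fatty acid oxidation (0.940), the integrin Itgad (0.940) and the sphingosine kinase Sphk2 (0.939). Hadh averaged 464, 244 and 398 RPKM in the groups of set 1 and 215, 92.7 and 114 RPKM in those of set 2, the order seen for Cox6a2. Gjd2 averaged 102, 51.1 and 79.2 RPKM in set 1 and 76.2, 35.4 and 40.4 RPKM in set 2. The lowest values belonged to the kinase Plk2 (−0.939), Asap3 (−0.931), Nucb2 (−0.924), Tgm3 (−0.924) and Igsf5 (−0.917), and Plk2 averaged 14.7, 36.3 and 17.1 RPKM in set 1. The other members of the complex described here lay between −0.30 for Cox4i2 and 0.24 for Cox7a1. With each gene centred on the 6 group means, so that genotype no longer enters, r was still 0.901 for Gjd2, 0.810 for Nt5c3 and 0.703 for Itgad. All of these values include set 2 control replicate 4. Its Cox6a2 read 18.7 RPKM, beside 49.7 to 79.6 RPKM in the other controls of its set. The values centred on the group means were not computed without that library, so its part in them is not known. All of them are descriptions.

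Itgad, an integrin gene of immune cells, is the next gene to Cox6a2 on chromosome 7, and the reference transcripts of the genes meet tail to tail and overlap at their 3′ ends. Its level followed that of Cox6a2 at 0.296% to 4.96% of it, with group means of 1.47, 0.377 and 1.13 RPKM in set 1 and 0.684, 0.0789 and 0.0796 RPKM in set 2. It changed by −1.19 and −0.99 on the log2 scale after Cop1 deletion in sets 1 and 2 (limma adjusted p = 0.00175 and 0.00156) and by 0.91 with the Etv1, Etv4 and Etv5 deletions added (adjusted p = 0.0106), a call lost without ΔCop1β replicate 2 (adjusted p = 0.0577) or replicate 3 (adjusted p = 0.0790). With the Etv4 and Etv5 deletions added it differed by 0.01 (limma adjusted p = 0.991). No ΔCop1β or ΔCop1β ΔETV4/5β library reached the filter level of 1 RPKM for Itgad, the highest being 0.669 RPKM. Itgad thus passed the filter through the groups where it was high, and its calls are not independent of that. Whether strand was used in counting is not given in the sources used here, so reads from the shared bases cannot be told apart, and Itgad is reported as uncertain. Itgax, the integrin gene beyond it, was not called in any comparison. On the other side, 9130023H24Rik fell by 0.61 in set 1 and by 0.55 in set 2 (limma adjusted p = 0.0216 and 0.00966), calls lost in 3 and 2 of 33 alternative settings. Beyond it, Armc5 fell by 0.29 in set 2 (limma adjusted p = 0.0270) and rose by 0.41 with the Etv1, Etv4 and Etv5 deletions added in set 1 (adjusted p = 0.0121), calls lost in 6 and 3 of 33 settings.

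The other values against controls were set beside those without the controls that stood apart. Without set 1 control replicate 2, the set 1 changes after Cop1 deletion stayed called for Ndufa4 (0.55), Coa7 (−0.66), Ppargc1a (−1.20), Slc2a2 (−2.15), C1qa (1.24), Sst (−1.20), Ppy (1.82), Cidea (−1.22), Itgad (−1.11) and 9130023H24Rik (−0.65). Without set 2 control replicate 4, the set 2 changes stayed called for Cox6c (0.41), Lrpprc (−0.48), Smim20 (0.30), Slc2a2 (−3.61), C1qa (2.47), Sst (−0.74), Ppy (1.10), Krt7 (1.27), Itgad (−1.17), 9130023H24Rik (−0.73) and Armc5 (−0.40). C1qb was no longer called there (0.65, limma adjusted p = 0.0848). In the mean of the sets, Smim20 was called with all libraries (0.25) but not without set 1 control replicate 2 (0.21, limma adjusted p = 0.104) or set 2 control replicate 4 (0.19, adjusted p = 0.0529). Cox18 was not called in the mean without the latter (−0.19, limma adjusted p = 0.0782). Ndufa4, Cox6c, Tfb1m and Yy1 stayed called in the mean without either. In ΔCop1β ΔETV1/4/5β islets the changes against controls without set 1 control replicate 2 were −0.46 for Coa7 and 1.35 for Actn2, and in ΔCop1β ΔETV4/5β islets those without set 2 control replicate 4 were 2.27 for C1qa and 1.0 for Krt7, all called. Of the 14 β-cell markers, 9 fell after Cop1 deletion in set 1 without control replicate 2, and 10 fell and none rose in set 2 without control replicate 4. Against controls, 2 were lower in ΔCop1β ΔETV1/4/5β islets without the first library, where none was called with it, and 4 were lower and 1 higher in ΔCop1β ΔETV4/5β islets without the second.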

How the data were processed

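The authors deposited 1 table of RPKM values per gene and library, with the genome build mm9 named in the submitters' processing notes; the sources used here do not name the aligner, the counting tool or the strand setting. Of its 24 columns, 22 matched a sample by title and 2 columns were not used. Genes were named by matching NCBI Gene numbers (24998 of 28059 matched). Values were taken as log2(RPKM + 0.5), and genes that reached 1 RPKM in 4 or more libraries, 14342 of them, were fitted with limma 3.58.1 (trend and robust, R 4.3.3) to 6 group means. Contrasts were 2-sided with Benjamini-Hochberg adjustment over all tested genes, called at 0.05, and 95% intervals used 16 residual degrees of freedom. Scripts were tested on simulated data. Relative depth came from the step between low values. Of the values of 3530 low genes, 87.5% to 90.5% were whole multiples of the step within 0.01. The step of a gene was its own smallest scaled value, and the depths were set from these same values. Part of this share was therefore fixed in advance, and it is not a test of the depths. As the step depends on gene length, read counts and a count test were not used. Shares of the Cox6a pair were compared with exact permutation tests over libraries. The limma p-values set each difference against the spread of libraries within the 6 groups, moderated over all tested genes.

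Members and gene lists were chosen with earlier results of these data known. Iapp and Ucn3 were named after their values were seen, as the β-cell markers that rose against controls. Named genes were drawn from the members, label checks, called genes of the lists with the lowest adjusted p (up to 4 per list and comparison), other subunits, the 5 most and least like Cox6a2, and its 4 nearest neighbours; not every gene so found is named, and Acta1 and Actn2 after Cop1 deletion were chosen after their values were seen. Sequences came from GENCODE M21 and RefSeq on GRCm38.p6 and no coordinates were mixed with the mm9 values. Alternatives changed scaling, pseudocount, filter, trend, library weights, separate fits per set and each library in turn.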

Additional observations from a re-analysis of the deposited data

Results flagged for a closer look

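Chance alone marks about 1 in 20 groups of 4 as holding a library far from the others, and 32 groups of 4 were examined for the members. In 4 of them a library stood apart. The highest Cox6a2 level among the ΔCop1β ΔETV4/5β libraries of set 2 was 15.8 RPKM, with the other 3 between 14.2 and 14.5 RPKM. The lowest Cox4i1 level among the set 2 controls was 168 RPKM, in replicate 4. The highest Cox7a2 level among the ΔCop1β libraries of set 2 was 110 RPKM, in replicate 2. The lowest Cox7a2 level among the ΔCop1β ΔETV4/5β libraries was 79.5 RPKM.

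A difference between the sets was tested for a pair of effects. The Cop1 effect on Ppargc1a differed by −1.22 on the log2 scale between set 1 and set 2 (limma adjusted p = 0.0259). Ppargc1a was low throughout set 2. With 0.5 RPKM added before logs, a fall as large as that in set 1 could not show there, so nothing is read from this difference. The Etv effect on Cox6a2 was 1.74 higher in set 1, where Etv1, Etv4 and Etv5 were deleted, than in set 2, where Etv4 and Etv5 were (limma adjusted p = 0.0435). Set and Etv genotype cannot be told apart in the second. The second also shares its ΔCop1β libraries with the contrast that selected Cox6a2, so it is not independent of that choice. Each of these calls was lost in part of the alternative settings, as given above.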

How the results depend on the processing

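No paired analysis was possible because the labels give no replicate numbers that the groups share. For Cox6a2, leaving out 1 library at a time gave log2 changes of 1.87 to 2.04 with the Etv1, Etv4 and Etv5 deletions added, −0.06 to 0.36 with the Etv4 and Etv5 deletions added, −0.63 to −0.31 and −2.09 to −1.40 for the same groups against controls, and 1.59 to 2.0 for the difference of the Etv effects. That difference missed the threshold with no filter (1.74, adjusted p = 0.0681) and with libraries scaled without Ins1 and Ins2 (1.66, adjusted p = 0.0510). The log2 ratio of Cox6a2 to Cox6a1 differed by 2.0 to 2.19 in set 1 and by 0.04 to 0.42 in set 2 with 1 library left out. Under limma's library weights, Cox6a2 against controls in ΔCop1β ΔETV1/4/5β islets was called (−0.49, adjusted p = 0.0485), as were Cox8a, Cox7a1, Cox4i2 and Cox6b1 in 1 or 2 comparisons each, and Cox18 turned in the difference of Etv effects (−0.30, adjusted p = 0.0448). The causes were not tested.

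Counts of all genes called moved more than those of the members. In the order Cop1 deletion in the mean, set 1 and set 2, the Etv1/4/5 and the Etv4/5 deletions added, the same groups against controls, and the set differences of the Cop1 and Etv effects, library weights gave 6259, 5429, 5035, 3712, 3217, 3022, 4766, 3872 and 3737 genes. Separate fits of each set gave 2112 and 1469 for Cop1 deletion in sets 1 and 2, 1704 and 0 for the added Etv deletions, and 664 for ΔCop1β ΔETV4/5β islets against controls. The 0 is from limma, which had 2077 genes at an unadjusted p below 0.05, and the joint fit called 248. Such fits cannot give the mean or the differences. Equal total RPKM shifted the median of all tested genes by −0.13 with the Etv1/4/5 deletions added and called 1628, 238 up and 1390 down, against 523 up and 386 down in the original scaling. It shifted Cop1 deletion in set 1 by 0.12 (1121 up and 256 down against 580 and 615), and scaling without Ins1 and Ins2 shifted Cop1 deletion in set 2 by −0.15 and called 4681, 632 up and 4049 down, against 1303 and 1399. Leaving out set 2 ΔCop1β replicates 2 and 3 together, chosen after seeing the data, gave 2061 and 1585 for Cop1 deletion in sets 1 and 2, 1691 and 44 for the added Etv deletions and 330 and 2231 against controls. Leaving out 1 library gave 718 (set 1 control replicate 1) to 1890 (set 2 ΔCop1β replicate 2) for Cop1 deletion in set 1, 542 (set 1 ΔCop1β replicate 4) to 1516 (set 2 ΔCop1β replicate 2) with the Etv1/4/5 deletions added, and 15 (ΔCop1β ΔETV4/5β replicate 2) to 767 (set 2 ΔCop1β replicate 4) with the Etv4/5 deletions added. Against controls it gave 91 (set 1 control replicate 1) to 358 (control replicate 2) and 801 (ΔCop1β ΔETV4/5β replicate 2) to 1997 (set 2 ΔCop1β replicate 2), and for the set differences 218 (set 1 control replicate 1) to 843 and 301 (set 1 ΔCop1β replicate 4) to 985, both highest without set 2 control replicate 4.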
